A study of Homo sapiens with 4 samples.

Results

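Long-probe promoters are the autosomal promoters of this array that were tiled with unusually long oligonucleotides. They were chosen by the array design alone, without the measured ratios. A design region was included if it lay on an autosome, spanned at most 2700 bp and held at least 10 probes. Every one of its probes had to carry a count field of 1, read here as a single match in the genome, and its mean probe length had to be 55 bases or more. Of 18028 design regions, 11800 met every criterion but the last, and 1011 of these (8.57%) were long-probe promoters. The remaining 10789 are called the other promoters and serve as the comparison. Where a background share of calls is given, it covers all regions or bins tested, not the other promoters alone. A further 371 autosomal regions had probes as long and were left out because they held a probe with a higher count.

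The study is a ChIP-chip experiment, in which DNA bound to a protein is immunoprecipitated from fixed chromatin, labelled and hybridised to an oligonucleotide array. The cells were HEK293, a human embryonic kidney cell line, stably transfected with the transcription factor RPF-1 carrying an HA tag, under a tetracycline-regulated switch. Induced cells were grown for 48 h in medium depleted of tetracycline, and control cells of the same stable line were grown for 48 h with it. Both were fixed with 1% formaldehyde and precipitated with the same anti-HA antibody. Each of the 4 arrays compared an induced precipitate (Cy5) with an uninduced one (Cy3), with no dye swap. A difference between the dyes at a probe thus cannot be told apart from one between induced and uninduced cells. The labels number the induced preparations 4, 10 and 13 and the uninduced preparations 3, 7 and 9 on arrays 2 to 4, and give no number for array 1. They do not say whether each preparation was a culture of its own, so the p-values below reflect the spread over these arrays, which may be technical. Array 1 and array 2 carry the file prefix N39, and arrays 3 and 4 the prefix N44.

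On arrays of this kind, probe length is commonly varied so that probes melt at similar temperatures. Sequence rich in A and T forms weaker duplexes and so receives longer probes, which is why long probes stand in here for low GC content. Many mammalian promoters sit in CpG islands, which are rich in G and C and typical of widely expressed genes. Promoters without such an island are often those of genes used in few tissues. Transcription factors differ in whether their preferred sites are AT-rich or GC-rich, so base composition is a basic covariate of any promoter binding map. The genome build of the files is not given in the sources used here, and the reference tables at hand are on another build. Base composition, gene names and sequences of these promoters were therefore not analysed here, and the promoters are described by probe length and by the coordinates in the files.

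The long-probe promoters were all 2700 bp long and held 10 to 27 probes, with a median of 20, against 21 in the other promoters. Their mean probe length ranged from 55 to 59.5 bases, with a median of 55.9, against 51.6 in the other promoters. Probes of 50 bases, the shortest on the array, made up 19.8% of the probes in long-probe promoters and 72.2% of those elsewhere. Probes of 60 bases or more made up 22.7% and 5.08%. Long-probe promoters were unevenly spread over the chromosomes. They made up 17.4% of the eligible promoters of chromosome 4, 13.5% of chromosome 11 and 12.4% of chromosome 6, but 0.856% of chromosome 19, 1.48% of chromosome 22 and 1.76% of chromosome 20. At the cutoff, the 4 promoters with a mean of exactly 55 bases that come first in genome order had mean log2 ratios of 0.32, -0.15, 0.14 and 0.00. The 4 just below it, at 54.96 bases, had -0.12, 0.02, 0.07 and -0.09.

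The first question was whether AT-rich promoters, as judged by probe length, gained or lost HA precipitate on induction. The value used was the mean log2 ratio of induced over uninduced signal across a promoter's probes, after the median of all probes had been set to 0 in each array. Higher and lower ratios are therefore relative to the centre of the array. The long-probe promoters averaged -0.22 in array 1, -0.10 in array 2, 0.31 in array 3 and -0.03 in array 4. The other promoters averaged 0.00, 0.00, -0.01 and -0.03. The arrays thus did not share a direction: array 3 stood above the other promoters, arrays 1 and 2 stood below them, and array 4 was level with them. The direction of array 2 depended on the processing: after the mean of each probe length was subtracted from the single probes, long-probe promoters differed from the others by -0.12, 0.03, 0.24 and 0.01 in arrays 1 to 4.

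The difference between long-probe and other promoters was -0.22, -0.10, 0.32 and 0.00 in arrays 1 to 4, with a mean of 0.00 ± 0.23 (SD, n = 4). In linear terms, long-probe promoters were 1.25-fold higher than the others in array 3 and at 0.860 of the others in array 1. The mean difference was far smaller than the spread between arrays. With 4 arrays an exact two-sided sign-flip test cannot give a p below 1 in 8, so no call was made on it. Without array 3 the mean difference was -0.10, and without array 1 it was 0.08. Arrays 1 and 2 alone gave -0.16, and arrays 3 and 4 alone gave 0.16.

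In arrays 1 and 3 the shift reached both tails of the distribution, but unevenly. In array 3 the 5th percentile was -0.27 in long-probe promoters and -0.37 in the others, and the 95th was 0.96 and 0.44. In array 1 the 5th percentile was -0.70 and -0.38, and the 95th was 0.28 and 0.39. Of the long-probe promoters, 22.4% lay above 0 in array 1, 37.4% in array 2, 79.7% in array 3 and 46.3% in array 4. The shares for the other promoters were 48.9%, 47.2%, 42.8% and 42.6%. Array 3 gave the highest of the 4 ratios in 85.0% of long-probe promoters and in 24.8% of the others. It gave a higher ratio than array 1 in 97.0% of long-probe promoters and in 44.3% of the others.

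**Figure D1:**
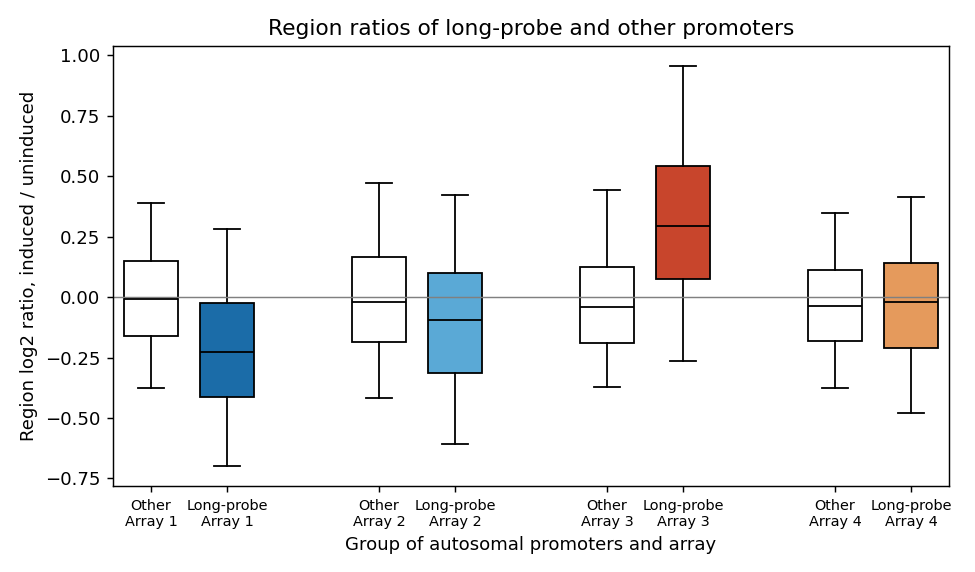
Log2 ratio of induced over uninduced signal per promoter (vertical axis) in each array for the 10789 other promoters (white) and the 1011 long-probe promoters (coloured); boxes span the quartiles with the median as a line, and whiskers run from the 5th to the 95th percentile. The long-probe median is 0.29 in array 3 and -0.23 in array 1, while the other promoters have medians between -0.04 and -0.01 in all 4 arrays.

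In arrays 1 and 3 the shift grew gradually with probe length and was present below the 55-base cutoff. Over all 11800 eligible promoters, the log2 ratio changed by -0.035 per base of mean probe length in array 1, by -0.019 in array 2, by 0.071 in array 3 and by 0.006 in array 4, with a mean of 0.006 ± 0.047 (SD, n = 4). In array 3, promoters whose probes were all 50 bases long averaged -0.12, those of 53 to 54 bases averaged 0.09 and those of 57 to 58 bases averaged 0.36. In array 1 the same classes averaged 0.01, -0.04 and -0.27. Array 2 gave 0.04, -0.03 and -0.19 in these classes, and array 4 gave -0.07, -0.01 and -0.07. Array 2 was flat just below the cutoff, at -0.03, -0.03 and -0.02 in the classes from 52 to 55 bases, and fell to -0.05, -0.13 and -0.19 in the 3 classes from 55 bases on. The 33 promoters of 58 bases or more averaged -0.34, -0.21, 0.29 and -0.15 in arrays 1 to 4, so that in array 3 they stood slightly below the preceding class.

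Within the long-probe promoters alone, the slope was -0.059, -0.074, 0.024 and -0.045 per base in arrays 1 to 4. Here array 4 fell with arrays 1 and 2, and array 3 alone did not fall. The mean of -0.038 ± 0.043 (SD, n = 4) was smaller than the spread between arrays.

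**Figure D2:**
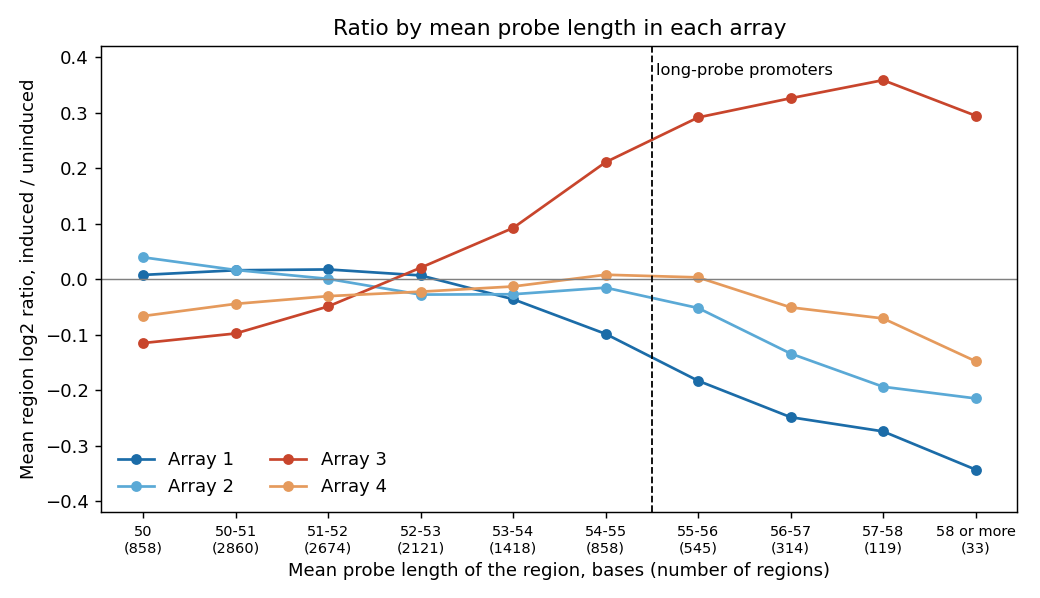
Mean log2 ratio of induced over uninduced signal (vertical axis) of eligible autosomal promoters grouped by mean probe length in bases (horizontal axis, number of promoters in parentheses; the class 50-51 lies above 50 and below 51), 1 line per array; the dashed line marks the 55-base cutoff. Array 3 climbs from -0.12 to 0.36 and then stands at 0.29 in the longest class, and array 1 falls from 0.01 to -0.34.

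The ratios of long-probe promoters varied more between arrays than those of the others. The SD over the 4 arrays had a median of 0.259 log2 in long-probe promoters (quartiles 0.187 and 0.341) and of 0.136 in the others. When the mean of the 200 eligible promoters of nearest mean probe length was subtracted in each array, the medians were 0.156 and 0.127. That subtraction, called the length correction below, was chosen after seeing the data. The promoters averaged in it include the long-probe ones, so it brings their mean near 0 in each array by construction. A smaller spread between arrays follows in part from that.

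The promoters' ranking was nonetheless shared. Across the 1011 long-probe promoters, the 6 pairs of arrays had Pearson correlations of 0.536 to 0.740 with a median of 0.703. Across the other promoters the range was 0.426 to 0.694 with a median of 0.571. Spearman correlations had medians of 0.676 and 0.556. These describe promoters that share 4 arrays and their probes, so no p is given. Arrays 1 and 3, which moved in opposite directions with probe length, correlated at 0.640 within long-probe promoters and at 0.340 over all eligible promoters. Long-probe promoters also differed more among themselves. Their ratios had an SD over promoters of 0.30, 0.31, 0.36 and 0.27 in arrays 1 to 4, against 0.24, 0.27, 0.25 and 0.22 in the others.

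The next comparison asked which long-probe promoters differed between induced and uninduced cells. Each of the 17765 design regions with at least 10 probes was tested against a ratio of 0 in a single limma fit, with Benjamini-Hochberg adjustment over all of them and a threshold of 0.05. Of the 1011 long-probe promoters, 119 (11.8%) had a higher ratio in induced cells and 171 (16.9%) a lower one. The background over all regions was 13.9% higher and 13.6% lower, 27.5% in all, against 28.7% of long-probe promoters. The share called was thus close to the background. Of the other promoters, 10.9% were called higher and 15.1% lower, 25.9% in all. Both shares were thus slightly larger in long-probe promoters than in their comparison group. Among those called, 32 higher (3.17%) and 36 lower promoters (3.56%) changed by at least 0.5 log2, against a background of 2.45% and 0.839%. The higher promoters had a median log2 ratio of 0.41 and the lower ones of -0.39. Uncalled promoters numbered 721 and lay between -0.37 and 0.45.

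The balance of directions depended on which arrays were used. Arrays 1 and 2 alone called 48 long-probe promoters higher and 284 lower, where the background of all regions was 9.76% and 8.75%. Arrays 3 and 4 alone called 219 higher and 57 lower, against a background of 10.6% and 7.03%. Of the promoters called in both pairs of arrays, 46 were higher in both (4.55%, background 4.96%), 55 were lower in both (5.44%, background 3.25%), and 2 were lower in arrays 1 and 2 and higher in arrays 3 and 4 (0.198%, background 0.0338%). Without array 3, 95 were higher and 323 lower, against a background of 14.6% and 14.4%, and without array 1, 162 were higher and 107 lower, against 13.2% and 11.2%. Without array 2 the counts fell to 67 and 81, where the background fell to 6.34% and 5.24%. Without array 4 they fell to 61 and 86, with a background of 6.28% and 4.45%. These 4 pairs of counts are 9.40% and 31.9%, 16.0% and 10.6%, 6.63% and 8.01%, and 6.03% and 8.51% of the long-probe promoters.

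The difference between arrays with the prefix N39 and those with N44 was also fitted for every region with limma. No region passed the adjusted threshold. At an unadjusted p under 0.05, 334 long-probe promoters (33.0%) were higher in arrays 3 and 4 than in arrays 1 and 2, against 5.61% of all regions, and 0 were lower, against 3.17%. Arrays 3 and 4 share the prefix N44. Long-probe promoters differed from the others by 0.32 in array 3 and by 0.00 in array 4. With 2 arrays per prefix, effects of an array, its preparations and its prefix cannot be told apart in this design. The cause of the shift in array 3 was not tested.

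After the length correction, 208 long-probe promoters were above 0 and 232 below it (limma), which is 43.5% of them. The near balance of directions is in part built in, since the correction brings their mean near 0 in each array. The background was 19.9% higher and 16% lower, 35.9% of all regions. These calls kept 117 of the 119 higher and 168 of the 171 lower promoters, turned none around and added 155. Subtraction of the mean ratio of each probe length from the single probes gave 213 higher and 174 lower. It moved the share of higher promoters among those called from 41.0% to 55%, with a background of 18.1% higher and 15.5% lower. When the median of the 10 nearest other promoters on each side was subtracted, 145 were higher and 152 lower, against a background of 15.5% and 9.98%. These counts are 14.3% and 15.0% of the long-probe promoters, against 13.1% and 11.2% of the other promoters. In that setting the difference between long-probe and other promoters was -0.20, -0.07, 0.26 and 0.00 in arrays 1 to 4.

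**Figure D3:**
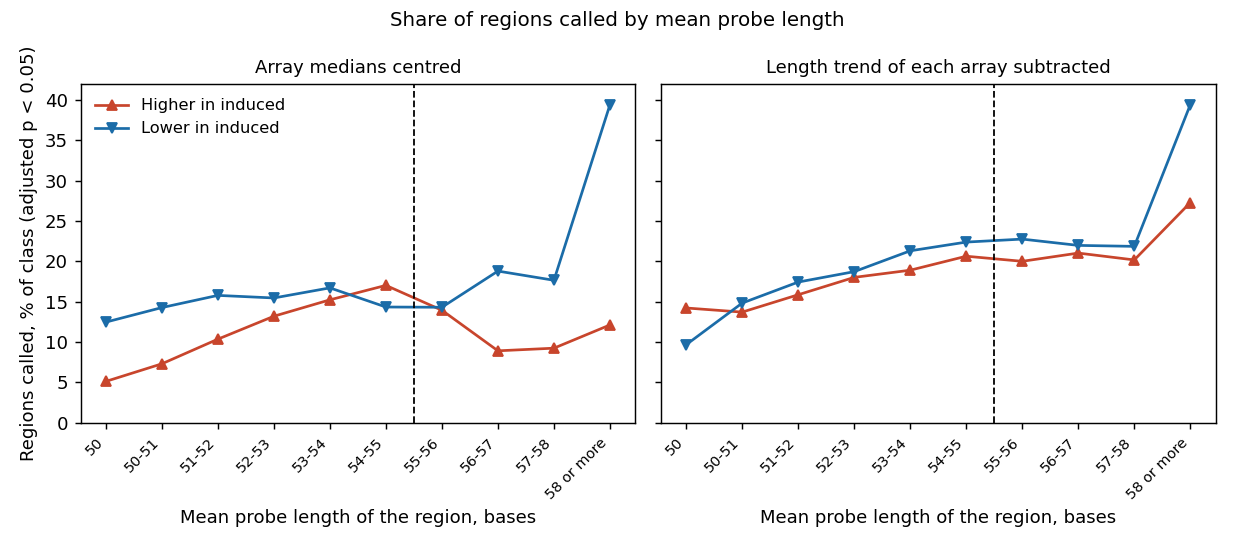
Share of eligible autosomal promoters called higher (red) or lower (blue) in induced cells (vertical axis, per cent of the class, limma adjusted p under 0.05) by mean probe length in bases (horizontal axis), with array medians centred (left) and after the length correction (right); the dashed line marks the 55-base cutoff. On the left, 9.24% of promoters of 57 to 58 bases are higher and 17.6% lower, and on the right 20.2% and 21.8%; the last class holds 33 promoters.

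The 10 highest long-probe promoters were taken among those called higher with a ratio above 0 in all 4 arrays, so their direction was fixed by the choice. The highest lay on chromosome 5, positions 20016546 to 20019246. Its 15 probes, with a mean of 58.3 bases, gave 0.29, 0.50, 1.72 and 0.82 in arrays 1 to 4. Its mean was 0.83 ± 0.63 (SD, n = 4), a ratio 1.78-fold above the array centre (limma adjusted p = 0.00724). All 4 arrays were above 0, but array 3 stood well above the rest and without it the mean was 0.54.

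A steadier promoter lay on chromosome 17, positions 46478770 to 46481470. It gave 0.60, 0.45, 0.94 and 0.96 in arrays 1 to 4, a mean of 0.74 ± 0.25 (SD, n = 4, limma adjusted p = 0.000736). The promoter on chromosome 1, positions 152378452 to 152381152, gave 0.52, 0.76, 1.14 and 0.66, a mean of 0.77 ± 0.27. It had the lowest adjusted p among the 10, 0.000696 (limma). In these 2 promoters the arrays stayed within 0.63 log2 of each other, whereas the range was 1.42 in the chromosome 5 promoter.

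The promoter on chromosome 7, positions 28439558 to 28442258, gave 0.59, 0.46, 1.25 and 0.86, with a mean of 0.79 ± 0.35. On chromosome 12, positions 9251733 to 9254433, the 4 arrays gave 0.37, 0.64, 1.57 and 0.54, with a mean of 0.78 ± 0.54 that was 0.52 without array 3. On chromosome 4, positions 48350191 to 48352891, they gave 0.32, 0.59, 1.06 and 1.01, with a mean of 0.75 ± 0.35. Array 1 was the lowest in the last 2 of these and array 2 in the first.

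The promoter on chromosome 2, positions 24658649 to 24661349, gave 0.45, 0.31, 1.60 and 0.49, a mean of 0.71 ± 0.59 that was 0.42 without array 3. On chromosome 6, positions 64412189 to 64414889, array 1 was the highest at 1.01, and arrays 2 to 4 gave 0.33, 0.89 and 0.60. The last 2 of the 10 lay on chromosome 5 from 43515347 (0.68 ± 0.40) and on chromosome 1 from 239911304 (0.65 ± 0.41). Array 3 alone gave the highest ratio in 8 of the 10. After the length correction the 10 stood at 0.62 to 0.89, and after subtraction of the neighbouring promoters at 0.56 to 0.83.

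The 10 lowest were taken in the same way among promoters called lower. The lowest lay on chromosome 1, positions 245816084 to 245818784, and gave -0.996, -0.96, -0.54 and -0.76 in arrays 1 to 4. Its mean was -0.81 ± 0.21 (SD, n = 4, limma adjusted p = 0.000332), a ratio 1.76-fold below the array centre. A second promoter of the same stretch, positions 245988029 to 245990729, had a mean of -0.66 ± 0.20. The neighbouring promoters there were themselves low, at -0.29 and -0.30, and after their subtraction these 2 stood at -0.53 and -0.35.

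Elsewhere the neighbourhood was nearer to 0. The promoter on chromosome 13, positions 48854529 to 48857229, gave -1.05, -0.74, -0.54 and -0.82, a mean of -0.79 ± 0.21 where its neighbours stood at -0.02. On chromosome 9, positions 104795283 to 104797983, none of the 20 probes was 50 bases long, and the arrays gave -0.99, -1.01, -0.27 and -0.70, a mean of -0.74 ± 0.35. The arrays agreed most closely on chromosome 4, positions 81473697 to 81476397, at -0.51, -0.71, -0.65 and -0.70, a mean of -0.64 ± 0.09 (limma adjusted p = 0.000401). Array 1 was the lowest in the first of these and the nearest to 0 in the last.

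Chromosome 4 held 2 more of the 10, from 70894036 (-0.73 ± 0.24) and from 62043233 (-0.67 ± 0.28). The others lay on chromosome 12 from 86946807 (-0.72 ± 0.18), on chromosome 2 from 203706517 (-0.71 ± 0.35) and on chromosome 1 from 74817535 (-0.65 ± 0.24). Array 3 alone gave the ratio nearest to 0 in 8 of the 10 and shared that place with array 4 in 1. After the length correction the 10 stood at -0.84 to -0.60, and after subtraction of the neighbouring promoters at -0.77 to -0.35.

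**Figure D4:**
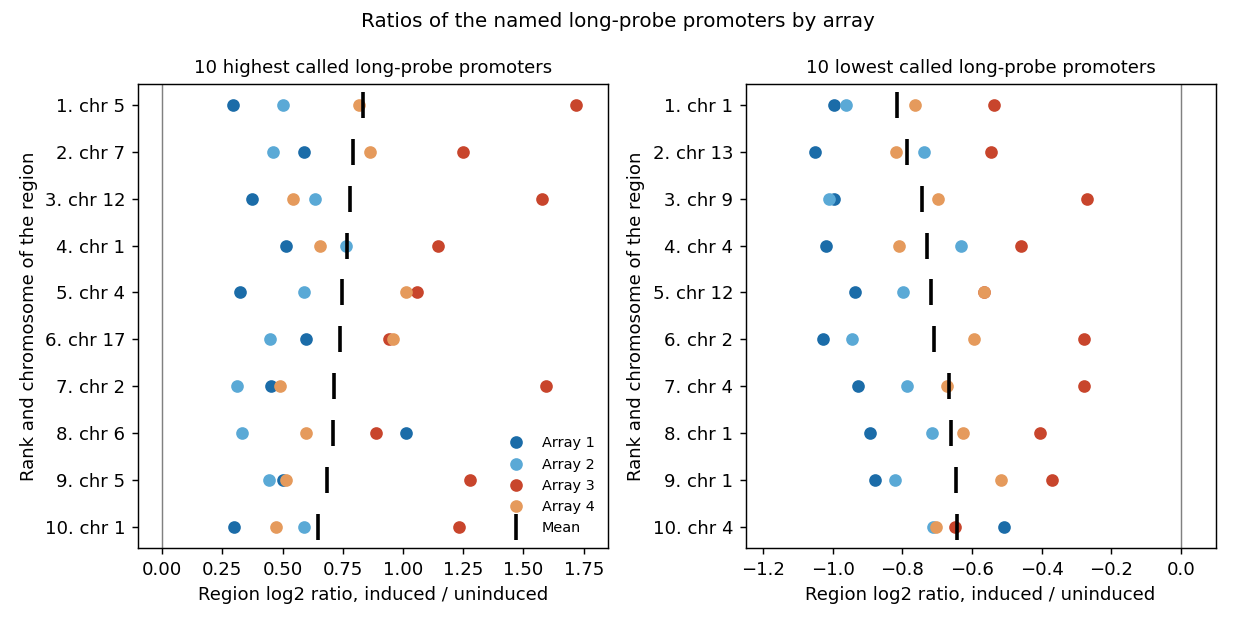
Log2 ratio of induced over uninduced signal (horizontal axis) in each of the 4 arrays (coloured points) and their mean (black tick) for the 10 highest (left) and 10 lowest (right) called long-probe promoters, listed by rank and chromosome (vertical axis). Array 3 is the rightmost point in most rows of both panels, from 0.94 to 1.72 among the highest except 0.89 in the promoter of chromosome 6.

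The 5 promoters with the longest probes did not share a direction. The longest, on chromosome 12, positions 10869635 to 10872335, averaged 59.5 bases over 21 probes, none of them 50 bases long. It gave 0.02, 0.34, 1.03 and 0.37, a mean of 0.44 ± 0.42 (limma adjusted p = 0.0281), with array 3 well above the rest. Without array 3 its mean was 0.24 and the call was kept (limma adjusted p = 0.0449). The call was lost without array 2 (0.47, adjusted p = 0.086), without array 4 (0.46, adjusted p = 0.0885) and in arrays 1 and 2 alone (0.18, adjusted p = 0.315). On chromosome 2, positions 186376572 to 186379272, a mean of 59.05 bases came with -0.78, -0.53, -0.20 and -0.54, a mean of -0.51 ± 0.24 (adjusted p = 0.00333). The promoter on chromosome 3, positions 56672899 to 56675599, gave 0.10, 0.11, 0.37 and 0.13, a mean of 0.18 ± 0.13 that did not pass (adjusted p = 0.1). It passed after the length correction (adjusted p = 0.0212). The remaining 2 were low, on chromosome 12 from 86946807, given above, and on chromosome 1 from 190550544 (-0.49 ± 0.27).

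Inside the long-probe promoters, the shortest probes had the highest ratios. Their 3941 probes of 50 bases averaged 0.08, 0.27, 0.52 and 0.18 in arrays 1 to 4. Their 15939 longer probes averaged -0.30, -0.19, 0.26 and -0.08. The 50-base probes were therefore higher in every array, including those in which the promoters as a whole were low.

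The same contrast was taken inside single promoters, between the mean of the 50-base probes and the mean of the probes of 55 bases or more. In the 712 long-probe promoters with at least 3 probes of each kind, it was 0.36, 0.42, 0.30 and 0.26 in arrays 1 to 4, a mean of 0.34 ± 0.07 (SD, n = 4). It was above 0 in all 4 arrays in 386 of them (54.2%) and below 0 in all 4 in 34 (4.78%). In the 6206 other promoters that allowed it, the contrast was 0.15, 0.28, -0.04 and 0.02, a mean of 0.10 ± 0.15. It was above 0 in all 4 arrays in 29.4% of these and below 0 in all 4 in 13.2%. The long-probe promoters exceeded the others by 0.21, 0.14, 0.34 and 0.24, upward in 4 of 4 arrays.

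Much of that gap disappeared when only directly neighbouring probes were compared. Among probes starting 100 bp apart, 50-base probes were compared with neighbours of 55 bases or more. Over 2902 pairs in long-probe promoters, the 50-base probes were higher by 0.28 ± 0.05 (SD over the 4 arrays). The excess was 0.24 ± 0.06 (SD over the 4 arrays) over 24112 pairs in the other promoters. The difference between these was 0.04, 0.01, 0.08 and 0.03 in arrays 1 to 4, a mean of 0.04 ± 0.03 (SD, n = 4). The contrast between adjacent short and long probes was thus found in both groups, and was slightly larger in long-probe promoters in each array.

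Probes of equal length differed with the promoter they lay in. Probes of 50 bases were higher in long-probe than in other promoters by 0.04, 0.20, 0.57 and 0.22 in arrays 1 to 4, a mean of 0.26 ± 0.22 (SD, n = 4), and upward in all 4. Probes of 55 to 59 bases differed by -0.21, -0.03, 0.16 and -0.08, a mean of -0.04 ± 0.15. Those of 60 to 64 bases differed by -0.16, 0.02, 0.19 and -0.03. The rise in array 3 and the fall in array 1 were thus present among long probes matched for length. The ratio did not fall steadily with length: in all 4 arrays the probes of 60 to 64 bases in long-probe promoters lay above those of 55 to 59 bases.

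**Figure D5:**
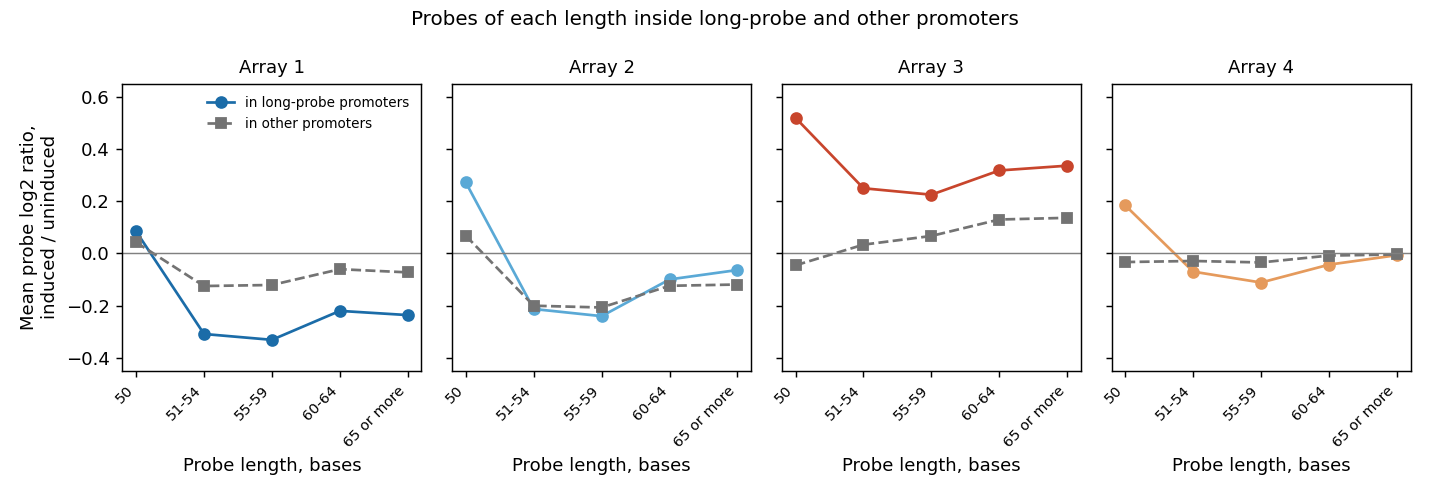
Mean log2 ratio of induced over uninduced signal of single probes (vertical axis) by probe length in bases (horizontal axis) in each array, for probes inside long-probe promoters (coloured circles) and inside other promoters (grey squares). In every panel the 50-base probes of long-probe promoters are the highest coloured point, from 0.08 in array 1 to 0.52 in array 3, and stand above the grey point of the same length.

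Position inside the promoter moved with probe length too. In long-probe promoters, 26.7% of the probes centred 450 to 600 bp from the nearer end were 50 bases long, against 13.9% of those 1200 to 1350 bp from it. These classes were chosen after their values were seen. The ratio was higher at 450 to 600 bp by 0.07, 0.14, 0.07 and 0.07 in arrays 1 to 4, a mean of 0.09 ± 0.03 (SD, n = 4). In the other promoters the same difference was -0.10, 0.02, -0.09 and -0.09, a mean of -0.06 ± 0.06. The part of probe length in this profile was not tested, and the files do not state the direction of transcription.

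Signals over parts of a promoter were tested in 500 bp bins with at least 3 probes. Of 4058 bins in 1009 long-probe promoters, 762 (18.8%) exceeded 0 and 878 (21.6%) fell below it at an adjusted p under 0.05 (limma, over 76092 bins). The background over all bins was 17% and 16.3%, 33.3% in all, against 40.4% in long-probe promoters. Both kinds of bin occurred in 227 promoters, only higher bins in 296, only lower bins in 339 and neither in 147. These counts have no counterpart here for the other promoters, so they are not read against a background. Probes of 50 bases made up 27.4% of the probes in higher bins, 11.6% in lower bins and 20.5% in uncalled bins. Their part in the calls was not tested directly. After subtraction of the mean of each probe length, 964 bins were higher and 863 lower, against a background of 19.6% and 17.9%. The direction of bins moved with the arrays as that of whole promoters did. Arrays 1 and 2 alone gave 423 higher and 1124 lower bins, against a background of 14.6% and 13.4% where these were 10.4% and 27.7%. Arrays 3 and 4 alone gave 662 (16.3%) and 310 (7.64%), against 9.34% and 6.53%. Without array 3, 504 (12.4%) were higher and 1098 (27.1%) lower, against 15.8% and 15.2%.

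The highest bin lay in the chromosome 17 promoter described above, positions 46479270 to 46479619. Its 4 probes gave 1.46, 1.30, 1.84 and 2.20 in arrays 1 to 4, a mean of 1.70 ± 0.40 or 3.25-fold (limma adjusted p = 0.000125). The bin on chromosome 17, positions 36231873 to 36232222, held 4 probes of 50 bases and gave 1.14, 1.54, 1.38 and 1.32, a mean of 1.35 ± 0.17. Its whole promoter stood at 0.34, so the signal was at one end. On chromosome 7, positions 113841811 to 113842160, a bin with a mean probe length of 58 bases gave 1.44, 1.06, 1.49 and 1.08, a mean of 1.27 ± 0.23. Its whole promoter stood at 0.42 ± 0.05.

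Other high bins lay on chromosome 4 from 48351716 (1.36 ± 0.84, and 0.69 in arrays 1 and 2 alone), on chromosome 7 from 28441561 (1.29 ± 0.46) and on chromosome 15 from 91243248 (1.29 ± 0.52). High bins were thus found over long probes as well as over 50-base probes. The lowest bins were more uniform between arrays. On chromosome 11, positions 7775565 to 7776017, the arrays gave -1.54, -1.38, -1.15 and -1.33, a mean of -1.35 ± 0.16 (limma adjusted p = 0.000125). On chromosome 9, positions 104796783 to 104797236, they gave -1.53, -1.46, -1.30 and -1.10, a mean of -1.35 ± 0.19. In this bin array 3 was as low as the others, unlike in the whole promoter around it.

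A bin on chromosome 4 from 44347915 stood at -1.31 ± 0.17, one on chromosome 3 from 167038958 at -1.30 ± 0.22, and one on chromosome 6 from 49819715 at -1.30 ± 0.32. None of these 5 low bins held a 50-base probe. The last of the 6, on chromosome 4 from 70894636 (-1.27 ± 0.79), rested more on array 4, at -2.41, than on the others, at -1.08 to -0.59.

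The opposite shifts of arrays 1 and 3 were found over the whole genome. Long-probe promoters were above the other promoters of their own chromosome in array 3 on 22 of 22 autosomes and below them in array 1 on 21 of 22, the exception being chromosome 22 with 4 long-probe promoters. Among chromosomes with at least 20 of them, the mean over arrays was lowest on chromosome 13, at -0.13 ± 0.20, and chromosome 4, at -0.12 ± 0.23, and highest on chromosome 5, at 0.09 ± 0.23 (SD, n = 4). The other promoters of these chromosomes stood at -0.06, -0.08 and 0.03. On chromosome 4, 4 of 90 long-probe promoters (4.44%) were called higher and 25 (27.8%) lower, against 4.67% and 22.4% of its other promoters. On chromosome 6, 18 of 82 (21.9%) were called higher and 10 (12.2%) lower, against 14.7% and 10.8%. On chromosomes 4 and 6 the skew had the same direction in the other promoters.

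Long-probe promoters were often neighbours. Runs of at least 3 with no other eligible promoter between them numbered 46 and held 201 of the 1011. The longest, on chromosome 11, positions 55076158 to 56168691, held 19 promoters and averaged -0.38, -0.15, 0.43 and -0.03 in arrays 1 to 4, with 0 called higher and 1 lower, where the background was 13.9% and 13.6% of all regions. A run of 12 on chromosome 4, positions 68793504 to 71493089, averaged -0.53, -0.32, 0.11 and -0.23, with 1 called higher and 4 lower. These runs spread over the arrays in the same order as the long-probe promoters as a whole, with array 1 lowest and array 3 highest.

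A run of 9 on chromosome 12, positions 53898875 to 54231777, averaged -0.34, -0.06, 0.55 and -0.02, and none of its members was called. The 7 promoters on chromosome 12, positions 10845993 to 11233010, averaged -0.13, 0.28, 0.59 and 0.20, with 4 called higher and 0 lower against that same background. They include the promoter with the longest probes. In a run of 7 on chromosome 5, positions 140458217 to 140583761, array 2 was the lowest at -0.24, and arrays 1, 3 and 4 gave 0.05, 0.41 and 0.00. Promoters of 1 run lie close together and are not independent of each other.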

How the data were processed

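The authors deposited, for each of 4 two-colour arrays, the log2 ratio of the Cy5 to the Cy3 signal of 386230 probes, written by NimbleScan per the file headers and source column. Neither file nor label states the base of the logarithm, which was read as 2. Per the labels' protocols, the precipitated DNA was amplified before labelling. The headers give biweight means of -0.916, -1.05, -0.592 and -0.586. Since the deposited ratios have medians of -0.01 to 0, these were taken to be already subtracted. NimbleScan's version, and whether background was corrected, is not stated in these sources, and the genome build is not given in the sources used here. The arrays hold the same probes, and at most 0.731% of the values were equal between 2 arrays.

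Each array was centred on its median, and probes were averaged per design region or 500 bp bin. An intercept-only model of limma 3.58.1 (R 4.3.3) tested the ratios against 0, two-sided, with Benjamini-Hochberg adjustment over all regions or bins and a threshold of 0.05. The fit was first tested on simulated data. Named regions are the 10 highest and 10 lowest called with the same sign in all 4 arrays, the 5 with the longest probes, the 4 on each side of the cutoff, the 6 highest and 6 lowest such bins (at most 1 per promoter), and the 5 longest runs, the shorter span first among equals. The members, lists and tests were chosen with earlier results of these data known. Precision is limited by having few arrays and, for bins, fewer probes per value; arrays have no sequencing depth.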

Additional observations from a re-analysis of the deposited data

Results flagged for a closer look

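Dixon's test at the 95% level was applied to the 4 arrays of 84 values, among them chromosome means not all printed above. Of these, 3 stood out, where chance gives about 1 in 20, or 4.2, for independent values. Many of the values share promoters and are not independent. In each of the 3, array 3 lay above the rest. The long-probe promoter that starts at 24658649 on chromosome 2 had 1.595 in array 3, against 0.31 to 0.49 elsewhere (log2 ratios). In that on chromosome 5 from 43515347, it gave 1.278 and the others 0.44 to 0.51. In that on chromosome 3 from 56672899, it gave 0.369 and the others 0.10 to 0.13.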

How the results depend on the processing

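Among the settings below, the length correction was added after seeing the data. The counts of long-probe promoters called moved by more than 1.5 times under these settings. Arrays 1 and 2 alone gave 48 higher and 284 lower, and arrays 3 and 4 alone 219 and 57. A minimum change of 0.5 log2 left 32 and 36 (background 2.45% and 0.839%). A cutoff of 53 bases gave 481 and 531 of 3287 promoters (14.6% and 16.15%). A cutoff of 57 bases gave 15 and 34 of 152 (9.87% and 22.4%). At least 20 probes gave 58 and 90 of 568 (10.2% and 15.85%). The background over all regions was 13.9% and 13.6%. The higher count was 213 after subtraction of probe length means and 208 after the length correction. Leaving out each array gave 61 to 162 higher and 81 to 323 lower. For bins, arrays 1 and 2 alone gave 423 higher, arrays 3 and 4 alone 310 lower, 250 bp bins 486 lower and 1000 bp bins 490 higher. No background is given here for the other bin sizes, so those counts are not read as a result. Leaving out each array gave 504 to 710 higher bins (12.4% to 17.5%), lowest without array 3. It gave 573 to 1098 lower bins (14.1% to 27.1%), lowest without array 1. In the bins of the other promoters these fits called 9.92% to 13.8% higher and 9.9% to 15.0% lower. The difference between long-probe and other promoters ranged from -0.10 to 0.08 with an array left out, and the slope per base from -0.016 to 0.020, lowest without array 3 in both. The uncalled promoter on chromosome 1 from 161438996, near 0, turned positive with medians over probes (0.14), with arrays 1 and 2 alone (0.050) and after subtraction of probe length means (0.023), and ranged from -0.051 to 0.079 with an array left out, positive without array 4. Among the named regions, 434 comparisons with an alternative kept direction and call, 5 lost the call, 5 gained it and 4 turned sign. The 4 that turned sign were all of the promoter from 161438996. All 180 comparisons for the named bins kept both, and other bin sizes were not run for them. The 10 highest, the 10 lowest and the bins were chosen as called with the same sign in all 4 arrays. Fits on fewer arrays could thus not turn them, and keeping their calls was favoured by that choice. Apart from changed numbers of promoters, bins or arrays, the cause was not tested. No paired analysis was possible because the 4 arrays form 1 group and each already pairs an induced with an uninduced precipitate. Intensities were not used here, so signal over background is unknown.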

Other observations

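Promoters outside the rule that also had a mean probe length of 55 bases or more gave the following values. On chromosome X, 48 single-match promoters averaged -0.31, -0.03, 0.20 and -0.02 in arrays 1 to 4, and the 390 with shorter probes averaged -0.01, 0.08, 0.09 and 0.05. The 371 autosomal promoters with long probes and at least 1 multi-match probe averaged -0.17, 0.01, 0.46 and 0.10, against 0.05, 0.12, 0.11 and 0.07 in 2834 such promoters with shorter probes. In 34 long-probe autosomal regions of more than 2700 bp the averages were -0.10, -0.06, 0.25 and 0.00. In all 3 sets array 3 gave the highest mean and array 1 the lowest.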
